A study of Rattus norvegicus with 4 samples.

Results

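Transcripts of 29 genes of cholesterol and fatty acid synthesis were followed in rat kidney across 4 Affymetrix RAE-230A arrays. The genes were taken by symbol from the platform annotation: 14 enzymes that build sterols, 11 enzymes that build or modify fatty acids, and 4 regulators. Of these, 28 had an annotated probe set (a set of short oligonucleotides that reports 1 transcript), 44 probe sets in all, out of 10411 named genes with 12783 probe sets. Hmgcs1, the enzyme that makes HMG-CoA, had none under that symbol and was not analysed here. The animals were males aged 9 weeks of the inbred strains SHR (spontaneously hypertensive) and BN (Brown Norway), which had received nicotine or saline prenatally. The 4 groups were SHR nicotine (13 animals), SHR saline (12), BN nicotine (12) and BN saline (12), and the RNA of a group was combined into 1 pool for 1 array. The sources used here give no dose, route or timing of nicotine. Pooling hides the spread between animals, so a group has no replicate check, and differences within 1 strain or 1 treatment are given as sizes with no test.

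Cells build cholesterol from acetyl-CoA through mevalonate, farnesyl diphosphate, squalene and lanosterol, and build fatty acids from the same acetyl-CoA through malonyl-CoA. Both routes are switched on by the sterol regulatory element-binding proteins, membrane-bound transcription factors that the Insig proteins hold in the endoplasmic reticulum when sterols are plentiful. Liver and fat tissue are the better-known sites of bulk synthesis, while kidney tubules are known above all for burning fatty acids as fuel.

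The values were signal intensities on an arbitrary scale common to the 4 arrays, with a trimmed mean of 150.0 on each. Levels of different genes cannot be compared on this scale. Values under 44.5, the floor set at the 40th percentile, were raised to it, and between 58.9% and 60.7% of probe sets lay at or above it on an array. All 6 proximal tubule markers and the 6 of 7 distal tubule and collecting duct markers with a probe set reached 89.0, which is 2 times the floor and is called the level here. The adipocyte markers Plin1 and Lep were under the floor on all 4 arrays, and of the 6 adipocyte markers with a probe set only Lpl reached the level. None of the 6 adrenal cortex markers with a probe set reached it.

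Not all of the pathway was measurable in kidney. Of the 28 genes with a probe set, 18 (64.3%) reached the level on at least 1 array, against 5697 of 10411 named genes (54.7%). They were 6 of 13 sterol enzymes, 8 of 11 fatty acid enzymes and all 4 regulators. The other 10 genes stayed between 2.1 and 82.0 on every array. Among them were 7 sterol enzymes. Mvk, mevalonate kinase, read 56.9 in SHR nicotine, 46.7 in SHR saline, 35.5 in BN nicotine and 43.1 in BN saline. Idi1, which isomerises the building block of isoprenoids, read 68.6 and 82.0 in SHR nicotine and saline and 54.5 and 49.9 in BN nicotine and saline. Cyp51, the lanosterol demethylase, read 74.0 and 74.3 in SHR and 65.6 and 61.8 in BN in the same order of treatments. All of these lie close enough to the floor that no ratio was formed from them. Nsdhl, a later sterol dehydrogenase, read between 47.2 and 74.5, and Sqle, squalene epoxidase, lay under the floor on all arrays except BN nicotine, at 48.2. Mvd, mevalonate diphosphate decarboxylase, Hsd17b7, a sterol ketone reductase, and Acacb, the mitochondrial acetyl-CoA carboxylase, were under the floor on all 4 arrays. The desaturase gene Scd read 56.2 and 58.9 in SHR nicotine and saline and 40.6 and 36.4 in BN nicotine and saline, and the elongase gene Elovl6 read between 51.6 and 60.6.

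**Figure D1:**
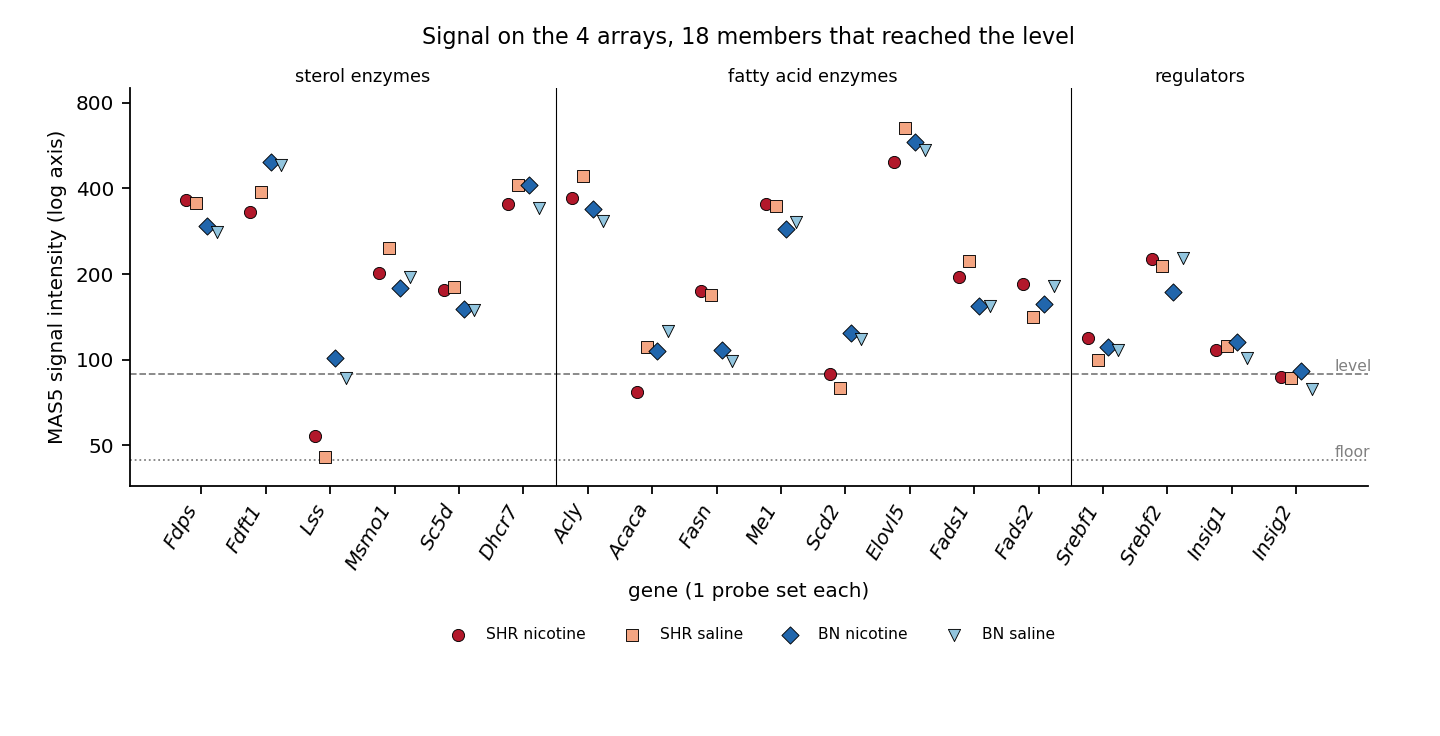
Signal intensity (log axis) of the 18 genes that reached the level of 89.0 on at least 1 array, 1 probe set a gene, with a symbol for each of the 4 pools. Fasn lies between 168.9 and 175.0 in SHR and between 99.0 and 108.3 in BN, while Lss and Scd2 lie higher in BN, and the SHR and BN symbols of the 4 regulators overlap.

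Promoter sequence was available from RefSeq (GRCr8 build) for 24 of the 29 genes, as 25 windows that run from 250 bases before to 50 after a gene's start. Srebf1 has 2 windows, and Fasn, Fdft1, Sqle, Elovl6 and Acaca are without one here. Matches to 4 motifs were counted on both strands, and no match of 1 motif overlapped a match of another. The CCAAT box, the site of the factor NF-Y, was present in 20 of 25 windows (80.0%), against 37.5% of all 33469 windows and 38.0% of the 21842 windows of protein-coding genes. GGGCGG, the GC box bound by Sp factors, was present in 72.0%, against 33.1% and 41.8%. CACGTG, the E-box, was present in 12.0%, against 6.42% and 7.01%. TCACNCCAC, the core of the classical sterol regulatory element, was present in none, against 1.12% of all windows. These are letter matches only, and a window without the letters says nothing about binding elsewhere.

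The CCAAT box was found in 10 of 12 sterol enzyme genes with a window, with 26 matches in all, and in 5 of 8 fatty acid enzyme genes, with 7 matches. Mvk held 5, and 4 of them lay on the reverse strand at a constant spacing of 53 bases, at positions -173, -120, -67 and -14 counted from 0 at the gene's first base. The windows below belong to the 5 genes that differ between strains in the next paragraphs and have a window. Capitals mark CCAAT, or ATTGG where the box lies on the reverse strand, and each sequence is written 5′ to 3′ along the gene. All 5 hold the box, whether the gene was higher or lower in SHR, beside 20 of the 25 windows (80.0%) whether or not the gene differed.
Fdps, chr2:176804767-176805066, minus strand: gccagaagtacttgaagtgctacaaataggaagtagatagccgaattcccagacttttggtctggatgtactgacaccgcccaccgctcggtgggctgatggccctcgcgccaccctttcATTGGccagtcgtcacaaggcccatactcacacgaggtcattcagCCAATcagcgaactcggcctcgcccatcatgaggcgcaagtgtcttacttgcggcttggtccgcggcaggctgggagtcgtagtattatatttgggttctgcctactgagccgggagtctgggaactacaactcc
Lss, chr20:12118181-12118480, minus strand: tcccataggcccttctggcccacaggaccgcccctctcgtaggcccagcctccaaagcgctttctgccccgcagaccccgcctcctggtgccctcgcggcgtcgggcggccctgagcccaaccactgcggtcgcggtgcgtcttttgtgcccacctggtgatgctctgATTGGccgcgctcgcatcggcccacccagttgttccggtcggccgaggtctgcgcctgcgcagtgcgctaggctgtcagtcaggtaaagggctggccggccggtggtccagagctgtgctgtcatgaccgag
Acly, chr10:85963582-85963881, minus strand: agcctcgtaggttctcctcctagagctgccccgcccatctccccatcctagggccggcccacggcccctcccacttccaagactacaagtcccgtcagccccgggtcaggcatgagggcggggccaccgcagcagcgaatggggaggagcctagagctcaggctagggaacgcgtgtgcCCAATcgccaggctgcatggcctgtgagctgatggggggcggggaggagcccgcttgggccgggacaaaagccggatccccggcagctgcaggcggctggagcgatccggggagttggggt
Scd2, chr1:253118127-253118426, plus strand: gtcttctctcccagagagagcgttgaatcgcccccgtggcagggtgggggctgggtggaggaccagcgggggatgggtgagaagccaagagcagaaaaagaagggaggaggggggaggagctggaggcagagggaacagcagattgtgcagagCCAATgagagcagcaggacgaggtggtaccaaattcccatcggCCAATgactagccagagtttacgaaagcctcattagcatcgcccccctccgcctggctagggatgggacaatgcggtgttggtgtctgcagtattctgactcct
Fads1, chr1:216252442-216252741, plus strand: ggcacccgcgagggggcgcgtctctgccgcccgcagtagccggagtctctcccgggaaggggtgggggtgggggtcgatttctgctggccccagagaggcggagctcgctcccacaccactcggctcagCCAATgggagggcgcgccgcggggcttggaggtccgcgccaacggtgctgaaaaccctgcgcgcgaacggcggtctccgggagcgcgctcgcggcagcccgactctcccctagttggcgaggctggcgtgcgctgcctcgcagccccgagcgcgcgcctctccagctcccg

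**Figure D2:**
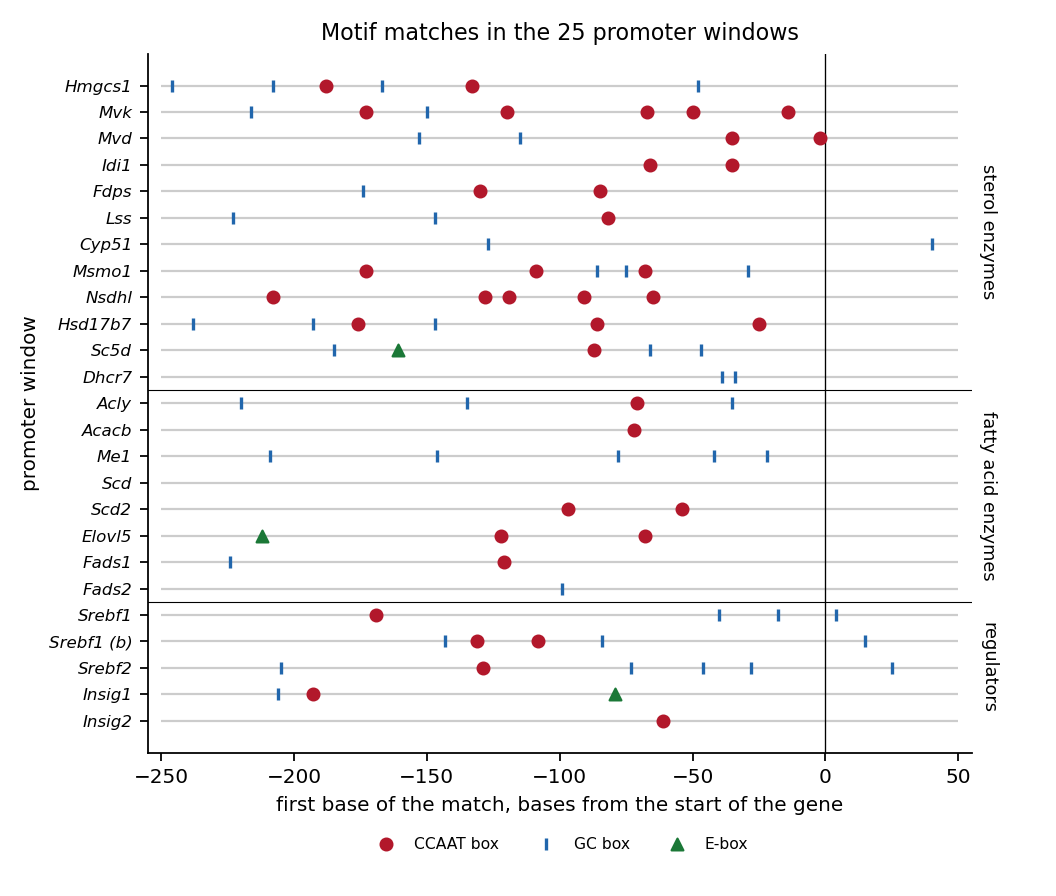
Position of the first base of each motif match, in bases from the gene's start, in the 25 promoter windows of 24 genes (Srebf1 has 2, the other marked b). CCAAT matches (circles) are found in 20 windows, GC boxes (bars) in 18 and E-boxes (triangles) in 3.

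SHR and BN kidneys differed in 7 of the 17 genes tested, and in both branches the differences ran both ways. Fasn, Acly, Fads1 and Fdps were higher in SHR, by 1.25 to 1.66 fold, and Lss, Scd2 and Fdft1 were lower in SHR, by 1.36 to 1.89 fold. The test was limma's moderated test of SHR minus BN over both treatments, 2 arrays a strain, with Benjamini-Hochberg adjustment at 0.05 over the 5444 genes whose higher strain mean reached the level. In that test 17.6% of all genes passed, 8.28% higher in SHR and 9.33% lower, and 30.3% had an unadjusted p under 0.05, against 9 of these 17. Lss and Scd2 entered the test through BN alone, so a count over the genes tested favours differences. In pooled whole kidney, fewer cells of a type and less RNA per cell cannot be told apart.

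In the sterol branch, Fdps, which makes farnesyl diphosphate, had signals of 365.1 and 355.1 in SHR nicotine and saline, against 295.2 and 281.3 in BN nicotine and saline. Both SHR pools lay above both BN pools, and the difference of 0.32 on the log2 scale (SE 0.09) had an adjusted p of 0.0193 by limma. The call was lost when any 1 array was left out. Those fits also dropped treatment and left 1 array in a strain, so the cause of the loss was not tested. The Fdps difference in them ran from 0.287 to 0.356. The next enzyme in line moved the other way. Fdft1, squalene synthase, which draws farnesyl diphosphate into the sterol route, had 330.0 and 389.3 in SHR, against 494.8 and 483.4 in BN. The groups did not overlap, and the difference was -0.45 (SE 0.09, limma adjusted p = 0.00118). With 1 array left out, the Fdft1 call was kept only without SHR saline. The difference ran from -0.568 there to -0.329 without SHR nicotine. Lss, which closes the sterol rings to give lanosterol, had 54.0 and 45.3 in SHR, against 101.5 and 86.2 in BN. Its SHR signals lay just above the floor and its difference of -0.92 (SE 0.21) was the widest of the 17, with a limma adjusted p of 0.00343. The Lss call held in the 3 fits without 1 array that could be made, with differences from -1.047 to -0.792. Without BN nicotine the gene fell under the filter.

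The 3 later sterol enzymes did not pass. Msmo1, which strips methyl groups from lanosterol products, had 201.1 and 247.3 in SHR nicotine and saline, against 178.8 and 195.6 in BN. Sc5d, a sterol desaturase, had 175.9 and 180.1 in SHR, against 150.8 and 148.9 in BN. Both genes had SHR pools above BN pools, by 0.25 on the log2 scale in each case, with limma adjusted p of 0.132 and 0.183. Dhcr7, which makes cholesterol in the last step, had 352.6 and 412.7 in SHR, against 412.0 and 340.3 in BN. These groups overlapped, and the interval of the difference, 95% from -0.19 to 0.24, covers 0.

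In the fatty acid branch, Acly, which makes cytosolic acetyl-CoA from citrate, had signals of 370.5 and 443.0 in SHR nicotine and saline, against 339.6 and 308.0 in BN nicotine and saline. The SHR pools were both above the BN pools, by 0.33 (SE 0.10, limma adjusted p = 0.0272). Leaving out 1 array also dropped treatment from the fit. The call was then kept only without SHR nicotine, with a difference of 0.454. Without SHR saline the difference was 0.20, against 0.33 with all arrays. Fasn, the fatty acid synthase that assembles palmitate, had 175.0 and 168.9 in SHR, against 108.3 and 99.0 in BN. The difference of 0.73 (SE 0.14, limma adjusted p = 0.000638) passed. It passed again without each of the 4 arrays in turn, with differences from 0.667 to 0.796. Acaca, the carboxylase that supplies malonyl-CoA to Fasn, had 77.1 and 111.0 in SHR, against 107.1 and 126.4 in BN. Its groups overlapped, and the difference of -0.33 (SE 0.16) did not pass (limma adjusted p = 0.178). Me1, the malic enzyme that supplies NADPH for synthesis, had 352.5 and 346.0 in SHR, against 286.9 and 303.6 in BN, and did not pass either (0.24, limma adjusted p = 0.0809).

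Of the enzymes that modify fatty acids, the desaturase gene Scd2 had 88.9 and 79.4 in SHR nicotine and saline, against 124.5 and 118.3 in BN nicotine and saline. Neither SHR pool reached the level, and the difference was -0.53 (SE 0.16, limma adjusted p = 0.0275). Fads1, a desaturase of polyunsaturated fatty acids, had 194.6 and 221.9 in SHR, against 154.8 and 154.1 in BN, a difference of 0.43 (SE 0.12, limma adjusted p = 0.0163). Both sets of groups were apart, yet neither call outlived the loss of any 1 array, which also dropped treatment from the fit. The differences then ran from -0.613 to -0.45 for Scd2 and from 0.334 to 0.523 for Fads1. Fads2, the partner desaturase encoded near Fads1 on chromosome 1, had 184.5 and 141.3 in SHR, against 156.6 and 180.9 in BN. These values overlapped, with a difference of -0.06 and a 95% interval from -0.35 to 0.23. Elovl5, an elongase of polyunsaturated fatty acids, had 497.5 and 654.2 in SHR, against 581.3 and 546.3 in BN, and its interval ran from -0.18 to 0.22.

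None of the 3 regulators tested passed. Srebf1, whose protein is known mainly for driving fatty acid genes, had 118.8 and 99.8 in SHR nicotine and saline, against 111.2 and 108.1 in BN nicotine and saline. Srebf2, the counterpart for sterol genes, had 226.2 and 213.5 in SHR, against 172.8 and 227.2 in BN. Insig1, which retains both proteins when sterols are high, had 108.5 and 111.3 in SHR, against 115.0 and 101.5 in BN. The SHR and BN values overlapped in all 3 genes. The strain difference was -0.01 for Srebf1 (95% interval -0.34 to 0.32), 0.15 for Srebf2 (SE 0.12) and 0.02 for Insig1 (-0.30 to 0.35). Insig2, the second Insig gene, reached the level on BN nicotine only, with 87.2 and 86.5 in SHR and 90.9 and 78.8 in BN, and was not tested for strain.

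**Figure D3:**
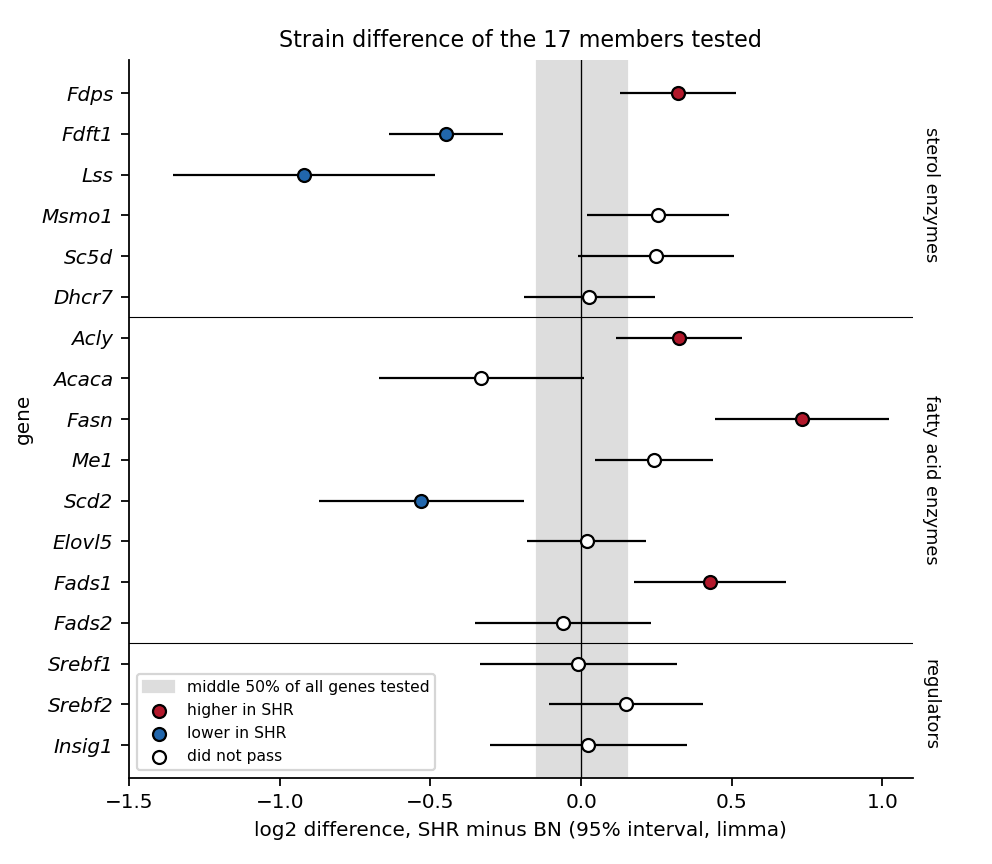
Log2 difference of SHR minus BN over both treatments with its 95% interval (limma, 4 arrays) for the 17 genes tested, coloured where the adjusted p was under 0.05. The shaded band, -0.15 to 0.15, holds the middle 50% of all 5444 genes tested. Fasn at 0.73 and Lss at -0.92 lie farthest from 0 in the 2 directions.

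Set side by side, the 2 branches had like medians and no common direction. Of 6 sterol enzymes tested 1 was higher and 2 were lower in SHR, with a median difference of 0.14 and a range from -0.92 to 0.32. Of 8 fatty acid enzymes 3 were higher and 1 was lower, with a median of 0.13 and a range from -0.53 to 0.73. All genes tested had a median of 0.00. With the mean of a gene's probe sets in place of the brightest, Lss, Scd2 and Acaca fell under the filter. All 3 had been lower in SHR, and 14 members were left to test. The medians were then 0.03 and 0.32, and the difference between branches moved to -0.29 from 0.01. Those medians are over fewer genes, so they do not show the effect of averaging alone. Of the 14 members, 3 passed, all higher in SHR. The typical size of a difference, regardless of sign, was 0.25 in the 17 members and 0.15 in all genes. Both SHR pools lay on one side of both BN pools in 10 of the 17 members (58.8%), 7 above and 3 below, against 59.3% of all genes tested, so separation of the pools alone was as common as elsewhere. By array, the median deviation of the 8 fatty acid enzymes from their own means over the 4 arrays was 0.08 in SHR nicotine, 0.16 in SHR saline, -0.08 in BN nicotine and -0.07 in BN saline. For the 6 sterol enzymes it was -0.06 in SHR nicotine, 0.13 in SHR saline, 0.01 in BN nicotine and -0.10 in BN saline. SHR saline thus had the highest branch median in both cases.

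Between pools of the same treatment, Fasn was 1.62-fold higher in SHR than in BN under nicotine and 1.71-fold higher under saline. Lss was 1.88-fold lower in SHR under nicotine, and under saline no pool reached the level. No other member was 1.5-fold apart: 2 of 18 members with a measured ratio under nicotine, against 7.6% of all genes, and 1 of 16 under saline, against 7.39%.

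Markers of several cell types differed between strains, in both directions. The 7 immune cell markers summed to 3951.3 and 3341.6 in SHR nicotine and saline, against 2791.3 and 2539.6 in BN nicotine and saline, and 4 of the 7 reached the level. All 3 that were tested passed, higher in SHR. Laptm5, which reached the level on BN nicotine only and was not tested for strain, went the other way. It read 82.3 and 71.5 in SHR, against 94.9 and 75.4 in BN. The macrophage lysozyme Lyz2 alone had 1742.4 and 1507.3 in SHR, against 1044.3 and 869.2 in BN. The adipocyte markers summed to 516.7 and 558.2 in SHR, against 741.3 and 690.7 in BN, a sum carried by Lpl, which is also expressed outside fat. Lpl had 341.3 and 375.7 in SHR, against 580.6 and 527.6 in BN. Such sums are led by the brightest genes, and in the tubule the single markers did not go one way. Of 6 proximal tubule markers 4 were higher in SHR, 1 was lower and 1 did not pass, with summed signals of 14824.3 and 15050.1 in SHR, against 13237.9 and 13479.5 in BN. The lower one was Cubn, an endocytic receptor, with a log2 difference of -0.57 (limma adjusted p = 3.14e-06). Of 6 markers of the distal tubule and collecting duct 1 was higher and 4 were lower in SHR, with a median difference of -0.31. Slc12a1, the salt transporter of the thick ascending limb, differed by -0.77 (limma adjusted p = 2.71e-07), the water channel gene Aqp2 by -0.41 and Umod, uromodulin of the same limb as Slc12a1, by 0.37. Their summed signals were 7325.8 and 7617.8 in SHR, against 6949.8 and 7099.6 in BN. Of 2 glomerular markers tested 1 passed, lower in SHR, and the 4 with a probe set summed to 695.0 and 702.3 in SHR, against 834.6 and 844.1 in BN. The 3′ to 5′ signal ratio of the beta-actin control, a gauge of RNA integrity, was 1.34 and 1.39 in SHR and 1.49 and 1.54 in BN. For the GAPDH control it was 1.11 and 1.0 in SHR and 1.09 and 1.07 in BN, which overlap. The part of these shifts in the strain differences of the synthesis genes was not tested.

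Another probe set at the level gave a second reading for 5 of the genes. For Fasn the dimmer set read 106.4 and 92.7 in SHR nicotine and saline, against 66.2 and 75.2 in BN nicotine and saline, a log2 difference of 0.49 in the same direction as the brighter set, with a limma adjusted p of 0.0762 when each probe set was tested on its own. For Me1 it read 275.9 and 333.8 in SHR, against 230.7 and 240.2 in BN, a difference of 0.37 that passed (limma adjusted p = 0.019) where the brighter set did not. For Fdft1 it read 150.9 and 159.3 in SHR, against 163.5 and 168.2 in BN. That difference of -0.10 has the sign of the brighter set and is smaller. The Sc5d sets contradicted each other: the dimmer one read 142.1 and 150.8 in SHR, against 171.5 and 175.9 in BN, a difference of -0.25 where the brighter set gave 0.25. The dimmer set of Elovl5 read 156.3 and 144.8 in SHR, against 146.5 and 135.0 in BN, and neither set passed. Lss and Scd2 had no second set at the level. The dimmer Lss set read 6.2 and 5.6 in SHR, against 7.6 and 5.5 in BN. These values lie under the floor, so no strain difference could be read from them. A further Scd2 set read 53.5 and 47.9 in SHR, against 52.5 and 57.8 in BN. Its groups overlapped, with a difference of -0.12. The remaining Scd2 set lay under the floor on every array.

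**Figure D4:**
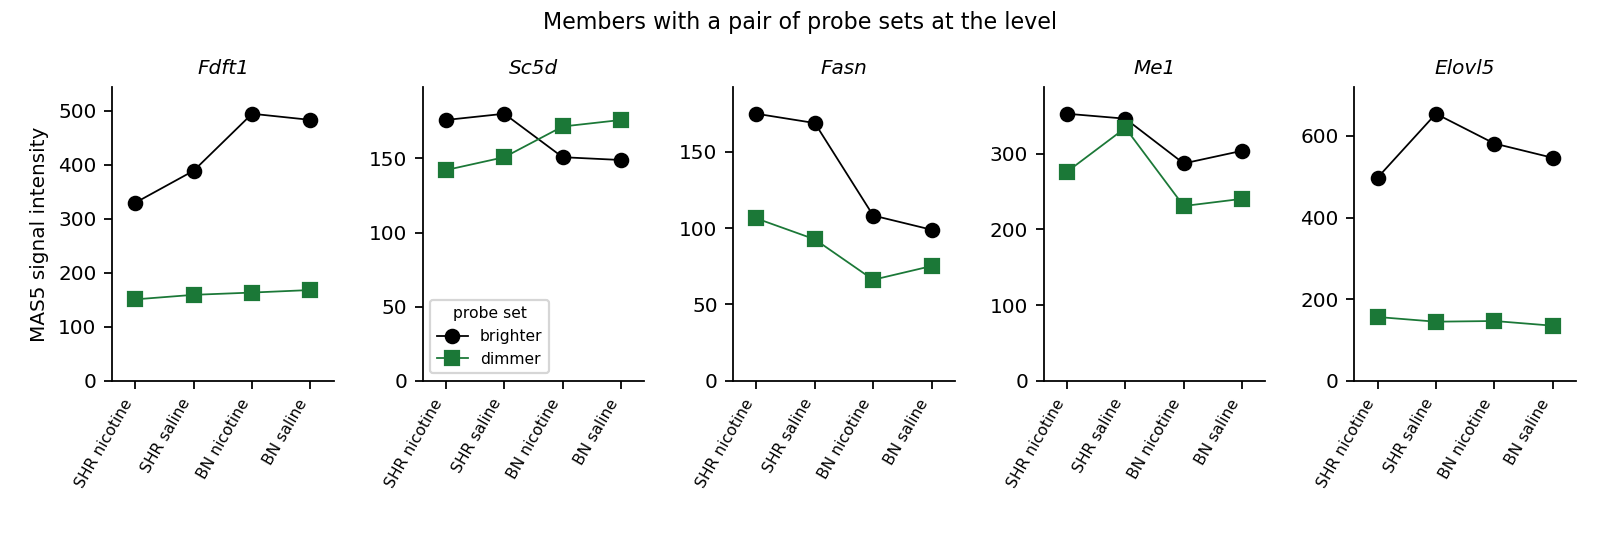
Signal intensity (linear axis from 0, own scale for each gene) on the 4 arrays for the brighter (circles) and the dimmer probe set (squares) of the 5 genes with 2 probe sets at the level. In Fasn and Me1 both sets lie higher in SHR, in Sc5d the sets run opposite ways, and in Fdft1 the brighter set alone shows a wide gap.

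Among further genes of both routes, 1 in each list passed for strain, beside 17.6% of all genes, and the differences were of like size. With 7 and 17 genes tested, such counts do not set the lists apart from all genes. Of 21 further sterol genes listed, 12 had a probe set and 7 were tested, and 1 of the 7 passed, lower in SHR. This was Scap, the escort protein that carries the sterol regulatory element-binding proteins out of the endoplasmic reticulum. Its signals were 147.4 and 137.6 in SHR nicotine and saline, against 206.6 and 186.1 in BN nicotine and saline, a difference of -0.46 (SE 0.12, limma adjusted p = 0.0115). Tm7sf2, a sterol reductase, and Ebp, a sterol isomerase, were picked out after their values were seen, with differences of -0.44 and -0.38 that did not pass (limma adjusted p = 0.0502 and 0.0764). Of 27 further fatty acid genes, 20 had a probe set and 17 were tested, and Elovl1, an elongase of very long saturated chains, was the 1 that passed. It had 830.7 and 874.1 in SHR, against 600.8 and 604.9 in BN, a difference of 0.50 (SE 0.08, limma adjusted p = 4.73e-05). The medians were -0.07 for the further sterol genes, 6 of 7 below 0, and 0.03 for the further fatty acid genes, 9 of 17 above 0. Regardless of sign, the median size was 0.15 in the further sterol genes and 0.16 in the further fatty acid genes, against 0.15 in all genes tested.

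Prenatal nicotine was not followed by a change in any of these genes that passed the test. Within a strain the nicotine and saline pools stayed under 1.5 fold apart in all 15 members with a measured ratio in SHR and all 18 in BN, where 1.86% and 1.43% of all genes were at least that far apart. In SHR 4 of 5 sterol enzymes and 4 of 7 fatty acid enzymes were lower under nicotine, with median log2 ratios of -0.23 and -0.19. In BN 5 of 6 sterol enzymes and 5 of 8 fatty acid enzymes were higher under nicotine, with medians of 0.05 and 0.04. The sets differ: Lss and Scd2 were counted in BN only, since neither SHR pool reached the level. Both were higher under nicotine in both strains, Lss by 0.255 in SHR and 0.235 in BN, Scd2 by 0.163 and 0.073. Leaving them out makes the SHR medians lower. The median of all genes was -0.01 in SHR and 0.01 in BN, and the SD over genes was 0.21 in SHR and 0.19 in BN. The comparisons in the 2 strains share no array, and the difference between strains was not tested, since each pool stands alone.

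The widest nicotine ratio in SHR was that of Acaca, at 77.1 in SHR nicotine against 111.0 in SHR saline, -0.53 on the log2 scale. Its BN pair ran the same way, at 107.1 in BN nicotine against 126.4 in BN saline (-0.24). A second Acaca probe set, under the level on all arrays, read 42.7 in SHR nicotine against 46.1 in SHR saline. In BN it ran the other way, at 59.1 under nicotine against 49.8 under saline. Over both strains its nicotine difference was 0.10, against -0.38 for the brighter set. Elovl5, the next in size, had 497.5 in SHR nicotine against 654.2 in SHR saline (-0.40), and in BN the 2 pools lay within 0.09 of each other. Srebf2 had the widest ratio in BN, with 172.8 in BN nicotine against 227.2 in BN saline (-0.40), and 226.2 against 213.5 in the SHR pools (0.08). Srebf1 read 118.8 in SHR nicotine against 99.8 in SHR saline (0.25), and 111.2 in BN nicotine against 108.1 in BN saline (0.04). A second Srebf1 probe set, under the level on all arrays, read 77.4 in SHR nicotine against 82.8 in SHR saline. In BN it read 85.3 under nicotine against 80.7 under saline. Over both strains the nicotine difference of that second Srebf1 set was -0.009, against 0.146 for the brighter set. Msmo1 had ratios of -0.30 in SHR and -0.13 in BN. Fdps and Fasn, higher in SHR than in BN, stayed within 0.13 of their saline pools in both strains.

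**Figure D5:**
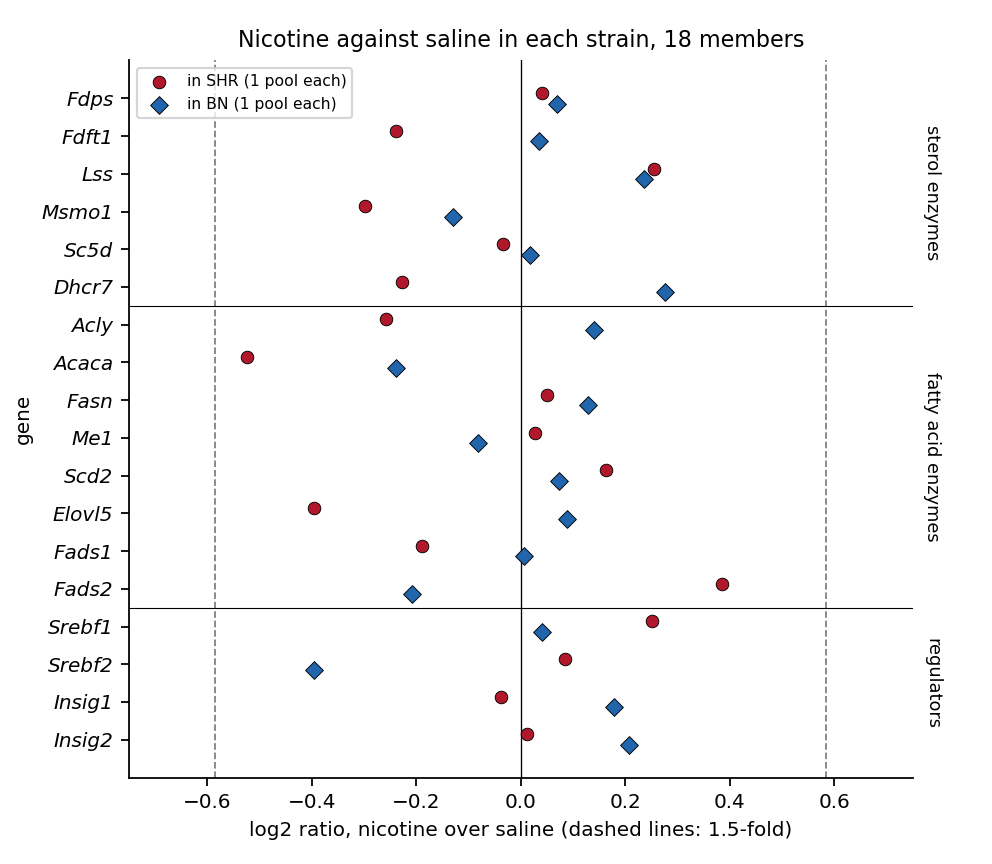
Log2 ratio of nicotine over saline in SHR (circles) and in BN (diamonds), 1 pool a group, for 18 genes, with dashed lines at 1.5 fold. No point lies beyond a dashed line, and Acaca at -0.53 in SHR comes nearest.

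Averaged over the strains, 17 members entered the nicotine comparison, with 2 arrays a treatment, and Lss did not. limma passed 0 of the 17 and 0 of 5363 genes (0.0%) at an adjusted p under 0.05. The unadjusted p was under 0.05 in 285 genes (5.31%), among them 1 member, Acaca. Its difference was -0.38 (SE 0.16), with a limma adjusted p of 0.812. Both nicotine pools lay to one side of both saline pools in 3 members, Acaca below and Srebf1 and Insig2 above, which is 17.6% against 20.7% of all genes. Median differences were -0.01 for 5 sterol enzymes, -0.04 for 8 fatty acid enzymes, 0.09 for the 4 regulators and 0.00 for all genes. The 95% interval was -0.14 to 0.25 for Fdps, -0.20 to 0.38 for Fasn and -0.18 to 0.47 for Srebf1.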

How the data were processed

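Each of 4 arrays has a deposited linear signal intensity for 15923 probe sets. The authors computed these intensities with MAS5, as the submitters' processing notes record; its version is not given in the sources used here, and the trimmed means show a common scaling. Control probe sets (57) were left out. Of the other 15866, 12783 had 1 gene symbol in the platform annotation, 312 several and 2771 none, and those with several or none were not named. A gene is represented by its probe set with the highest mean intensity. Intensities under 44.5, the 40th percentile, were raised to that floor before log2 was taken. limma 3.58.1 in R 4.3.3 fitted strain and treatment over the 4 arrays (lmFit, then eBayes with a trend on mean intensity). Benjamini-Hochberg adjustment ran over all genes whose higher group mean reached 89.0. The fit leaves 1 residual degree of freedom, and eBayes added 19.3 prior degrees for strain and 13.3 for nicotine. No group has a second array, so the 1 residual degree holds how far the nicotine ratio differs between the strains. The p-values take that difference, moderated over genes by eBayes, as the spread between arrays. A nicotine response that differs between strains therefore counts as spread. The p-values hold no spread of animals. A pair of single pools has a ratio but no p-value, and enters a count at 1.5 fold if the higher value reached 89.0. The number of arrays limits the precision.

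All 29 genes of the list are named, with the further pathway genes that passed for strain. The genes, lists and motifs were chosen with earlier results of these data known. Fits were tested on simulated data, with changes placed only in genes brighter on average than Fasn, Lss and Scd2. That run says nothing on genes as dim as these. Promoter windows and their coordinates come from RefSeq (GRCr8). Alternatives changed the floor, the filter, the normalization, the handling of probe sets, the trend and covariate of the model, the grouping of regulators, and the arrays used. Fits with an array left out held only the factor compared, so they changed the covariate as well.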

Additional observations from a re-analysis of the deposited data

Results flagged for a closer look

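In 2 of the genes the nicotine and saline pools lay in opposite orders in the 2 strains, each ratio being larger than the SD over all genes in that strain (0.21 in SHR and 0.19 in BN). Dhcr7, the enzyme of the last step to cholesterol, had a log2 ratio of nicotine over saline of -0.227 in SHR and 0.276 in BN. Fads2, a desaturase of polyunsaturated fatty acids, had 0.385 in SHR and -0.208 in BN. The difference between strains was not tested, because each ratio compares 1 pool with 1 pool.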

How the results depend on the processing

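Of 138 summary values recomputed under the alternatives, 99 kept within the spread or within 1.5 times the reported count. The strain comparison of all genes, 959 by default, gave 500 calls after quantile normalization, 630 after cyclic loess, 440 without the intensity trend and 300 to 534 with 1 array left out. Without the filter on low genes limma called 0 of 10411 genes, 1280 of them with an unadjusted p under 0.05. Members called fell to 3 after quantile normalization (1 higher and 2 lower in SHR), to 3 with the mean of a gene's probe sets (3 higher, 0 lower), to 3 without the trend (1 higher, 2 lower), to 0 without the filter (6 with an unadjusted p under 0.05) and to 1 to 3 with 1 array left out. Over the alternatives that tested them, Lss kept its call in 9 of 10, Fasn in 11 of 12, Fdft1 in 7 of 13, Fads1 in 6 of 13, Fdps in 6 of 13, Scd2 in 4 of 11 and Acly in 3 of 13. With the mean of a gene's probe sets, Lss and Scd2 fell under the filter and were not tested. With the floor at the 60th percentile the same held for Lss, Scd2 and Fasn, and without BN nicotine for Lss. The counts above leave those settings out, so a gene near the filter is counted over fewer of them. Me1 gained a call with the floor at the 60th percentile (adjusted p = 0.0489). No called member changed sign. There were 31 sign changes among uncalled differences, none above 0.16 in size by default. All came from leaving out an array, which also dropped the other factor from the model. For nicotine, 6 genes passed with the floor at the 20th percentile and 27 with it at the 60th, none of them a member. The strain median of the fatty acid enzymes moved to 0.284 (floor at the 60th percentile), 0.315 (mean of probe sets), 0.04 (no filter), 0.018 (regulators counted with the branches) and 0.132 to 0.222 (1 array left out). The sterol minus fatty acid difference moved to -0.288 with the mean of probe sets, where Lss, Scd2 and Acaca were not tested. For nicotine, leaving out 1 array gave fatty acid medians from -0.285 to 0.039 and sterol minus fatty acid differences from -0.127 to 0.17. Those fits held no strain term, so their nicotine values also hold part of the strain difference. Members at least 1.5-fold apart numbered 1 for nicotine in BN with the floor at the 20th percentile. For strain under saline they numbered 5 and 0 with the floor at the 20th and 60th percentile, 2 after each normalization and 0 with the mean of probe sets, and under nicotine 4 and 0 with those floors and 1 with the mean. With 1 array left out, arrays and model changed together, and the cause of these moves was not tested. A higher floor or level leaves fewer genes to test. The default fit with all arrays compares strains within treatment. With strain alone in that fit, 770 genes and 6 members passed. The labels carry no replicate numbers to pair pools by. Lss, Scd2, Acaca and Insig2 each had signals under 89.0 on some arrays.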
